A study of Mus musculus with 8 samples.

Results

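Genes of 10 small leucine-rich proteoglycans (SLRPs), *Dcn*, *Bgn*, *Aspn*, *Fmod*, *Lum*, *Prelp*, *Omd*, *Epyc*, *Ogn* and *Chad*, were examined in FACS-sorted mCherry+CD73+ cells of the mouse growth plate, labelled as metaphyseal growth plate. They were chosen by name from the gene table, and all 10 were found among its 16536 genes. Each of 8 Pthrp-mCherry mice, whose reporter labels cells with an active gene of PTHrP (*Pthlh*), gave 1 library of total RNA. The reporter allele was shared by both groups. The 4 mice of the SAG group received i.p. SAG, a small-molecule agonist of Smoothened that activates the Hh pathway, and the 4 DMSO mice received the vehicle, once daily from P30 to P36 per the labels, or 1 day later per the methods. The mice were sacrificed at P38, and the cells of both femoral growth plates of a mouse were sorted together, so a library describes a pool of mCherry+CD73+ cells from 1 animal.

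SLRPs are secreted proteins with a core of leucine-rich repeats, most of which carry chondroitin, dermatan or keratan sulfate chains. They bind the surface of collagen fibrils and set fibril diameter and spacing, and several of them also hold growth factors of the TGF-beta family in the matrix. By sequence they fall into classes: *Dcn*, *Bgn* and *Aspn* form class I, *Fmod*, *Lum*, *Prelp* and *Omd* class II, *Epyc* and *Ogn* class III, and *Chad* is the member of class IV. In cartilage they are part of the matrix around chondrocytes, and *Epyc* and *Chad* are best known from growth plate and hyaline cartilage.

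The genes lie in clusters (GRCm38, GENCODE release M21). On chromosome 10, *Dcn* (97479609 to 97518143), *Lum* (97565128 to 97572703) and *Epyc* (97644068 to 97682454) follow each other, with *Kera*, the gene of the corneal SLRP keratocan, between *Lum* and *Epyc*. On chromosome 13, *Aspn* (49544443 to 49567565), *Omd* (49582462 to 49592822) and *Ogn* (49608046 to 49624501) are separated by gaps of 14.9 and 15.2 kb. On chromosome 1, *Prelp* (133910304 to 133921414) and *Fmod* (134037254 to 134048277) are 115.8 kb apart. *Bgn* stands on the X chromosome (73483602 to 73495933) and *Chad* on chromosome 11 (94565047 to 94569127). *Aspn*, *Omd* and *Ogn* lie within *Cenpp*, and *Chad* overlaps *Acsf2*, both on the opposite strand. *Prelp* and *Epyc* overlap the antisense gene *Gm15851* and the lincRNA *Gm10754*, whose transcripts hold 9% and 40% of their 31-base words on either strand. Whether strand was used in counting is not stated, so reads from these shared stretches of *Prelp* and *Epyc* cannot be told apart from those of their partners. *Aspn*, *Ogn* and *Chad* shared 0 such words with transcripts of other genes, and *Omd* shared 6.46%, with 1038 genes.

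The 250 bases before the RefSeq start, read 5′ to 3′ on the strand of the gene, are shown for the 5 genes to which the comparisons below return: the pair with the most similar profile (*Bgn* and *Fmod*), the 2 genes with the smallest p-values (*Chad* and *Epyc*), and the single gene with a positive fold change (*Ogn*). Capitals mark TATAAA, the TATA box, or AACAAT, a core of SOX factor sites, on either strand.
Bgn (chrX:73483351-73483600, plus strand): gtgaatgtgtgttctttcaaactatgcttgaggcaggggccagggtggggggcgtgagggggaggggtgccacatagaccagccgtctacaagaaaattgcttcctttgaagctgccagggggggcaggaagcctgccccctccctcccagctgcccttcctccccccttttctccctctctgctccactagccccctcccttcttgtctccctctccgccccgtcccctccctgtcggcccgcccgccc
Fmod (chr1:134037004-134037253, plus strand): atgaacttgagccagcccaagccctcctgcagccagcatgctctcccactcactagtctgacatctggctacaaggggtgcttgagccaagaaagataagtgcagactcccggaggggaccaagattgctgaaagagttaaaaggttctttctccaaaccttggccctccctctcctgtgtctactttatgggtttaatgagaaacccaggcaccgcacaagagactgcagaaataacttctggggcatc
Chad (chr11:94564797-94565046, plus strand): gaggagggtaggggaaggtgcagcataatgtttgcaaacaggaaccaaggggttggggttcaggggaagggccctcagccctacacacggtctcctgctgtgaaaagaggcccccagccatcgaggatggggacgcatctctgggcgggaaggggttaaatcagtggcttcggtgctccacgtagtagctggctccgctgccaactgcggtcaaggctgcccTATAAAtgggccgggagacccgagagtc
Epyc (chr10:97643818-97644067, plus strand): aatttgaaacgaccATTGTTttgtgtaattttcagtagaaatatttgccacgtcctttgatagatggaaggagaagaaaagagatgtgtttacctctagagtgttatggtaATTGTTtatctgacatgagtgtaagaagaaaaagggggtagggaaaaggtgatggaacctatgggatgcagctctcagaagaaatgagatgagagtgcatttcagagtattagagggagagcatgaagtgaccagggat
Ogn (chr13:49607765-49608014, plus strand): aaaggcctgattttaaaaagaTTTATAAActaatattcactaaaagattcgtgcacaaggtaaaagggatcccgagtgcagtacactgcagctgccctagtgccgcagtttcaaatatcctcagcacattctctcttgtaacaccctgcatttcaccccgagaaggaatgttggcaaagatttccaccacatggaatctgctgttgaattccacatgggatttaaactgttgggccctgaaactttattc

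The sequences are from RefSeq (GRCm38.p6), whose promoter table matched 8 of the 10 genes; *Dcn* and *Lum* are named only. The RefSeq start lay 31 bases before the GENCODE start given above for *Ogn* and 1 base before it for *Bgn*, and was the same for *Fmod*, *Chad* and *Epyc*. TATAAA was found in 3 of the 8 windows and in 12.4% of the 32851 promoter windows of the same length. It stood 28 bases before the start in *Chad*, whereas in *Ogn* its 2 overlapping matches, on opposite strands, began 229 and 227 bases before the start, and in *Aspn* 207 and 178 bases before. AACAAT was found in 3 of the 8 windows (*Epyc*, *Prelp* and *Aspn*) and in 9.42% of all. The *Epyc* window held it at 236 and 139 bases before the start. GACCACCCA, the consensus of the GLI factors of the Hh pathway, was found in 0 of the 8 windows and in 0.225% of all. *Bgn* and *Fmod* held none of the 3 motifs in these windows.

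Libraries held between 24971992 and 46593090 counts on genes, so 3 counts corresponded to between 0.0670 and 0.114 CPM (the count relative to library size, with TMM scaling), a floor for counting error only. DMSO replicate 4 was the shallowest library and detected the fewest genes (14416). Summed CPM of 12 chondrocyte markers, led by *Col2a1*, was between 45423 and 105511 in DMSO and between 18222 and 51109 in SAG mice, and 0 of the 12 were called while all 12 log2 fold changes were negative. At an unadjusted p under 0.05 (edgeR), 11 of the 12 were lower, beside 6.5% of all genes. Summed CPM of 12 neutrophil markers, led by *S100a9*, was between 4889 and 13771 in DMSO and between 25620 and 40753 in SAG mice, without overlap, and 9 of 12 were called higher. Of 11 tested B-lineage markers, 3 were called lower, with sums between 93.0 and 434 CPM in DMSO and between 24.2 and 51.3 CPM in SAG mice. The 12 markers of fibroblasts, tendon and perichondrium summed to 1031 CPM in DMSO replicate 1, to between 180 and 284 CPM in the other DMSO libraries and to between 310 and 624 CPM in SAG mice, with *Pi16* called higher. Of these 12 markers, 10 had negative log2 fold changes (median -0.57). Those of osteoblasts ranged from 1272 to 2528 CPM in DMSO and from 577 to 2319 CPM in SAG mice. Of 10 tested osteoblast markers 0 were called, and all 10 log2 fold changes were negative (median -1.02). Sums did not overlap for 8 markers of CXCL12-abundant stroma (366 to 519 CPM in DMSO, 606 to 834 CPM in SAG mice, *Hp* called higher) and for 6 osteoclast markers (195 to 420 and 767 to 1353 CPM, *Mmp9* called higher). The most abundant genes of these lists were *Hp* and *Mmp9*, and the part of neutrophil RNA in their levels was not tested. Log2 fold changes were negative for 4 of the 8 stroma markers (median 0.02) and for 3 of 5 tested osteoclast markers (median -0.31). Among the DMSO libraries, replicate 4 had the lowest chondrocyte marker sum (45423 CPM). It also had their highest neutrophil (13771 CPM), B-lineage (434 CPM) and erythroid sums (9916 CPM over 9 markers). In bulk RNA, fewer cells of a type and less RNA per cell cannot be told apart. Of the genes used in the sort, *Pthlh* was between 14.9 and 22.1 CPM in DMSO and between 18.4 and 29.9 CPM in SAG mice. *Nt5e*, the gene of CD73, was between 184 and 270 CPM in DMSO and between 149 and 174 CPM in SAG mice, without overlap (log2 fold change -0.51, SE 0.19, edgeR's adjusted p = 0.186).

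SLRP transcripts were abundant in these cells, and 4 genes made up nearly all of the family's level. Per kilobase of the union of exons, the mean over the 8 libraries was 695 CPM for *Chad*, 621 for *Fmod*, 305 for *Bgn* and 239 for *Prelp*. *Omd* (48.1), *Lum* (46.9), *Dcn* (34.0), *Epyc* (19.2), *Ogn* (10.2) and *Aspn* (5.74 CPM per kilobase) followed well below. *Chad* was above *Fmod* in 4 of 8 libraries, all of them DMSO. *Prelp* was above *Omd* in 8 of 8 libraries with each of the 3 gene lengths tried, and *Omd* was above *Lum* in 4 of 8, so the latter pair did not differ beyond its spread. The places of *Bgn* and *Dcn* depended on the length used. With the union of exons, *Fmod* was above *Bgn* in 8 of 8, *Bgn* above *Prelp* in 6 of 8 and *Lum* above *Dcn* in 8 of 8 libraries. With the longest transcript these orders held in 1, 8 and 4 of 8 libraries, and with the longest protein-coding transcript in 0, 8 and 0 of 8. *Ogn* was above *Aspn* in 7 of 8 and *Epyc* above *Ogn* in 6 of 8 with each length. The 10 genes took between 0.522% and 1.06% of all counts in DMSO and between 0.195% and 0.585% in SAG mice.

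With SAG, 9 of the 10 SLRP genes had lower mean levels, and none of the 10 differences passed the test across all genes. By edgeR's quasi-likelihood test with Benjamini-Hochberg adjustment, 0 of 10 were called lower and 0 were called higher, beside 0.266% of all 15421 tested genes called lower, 2.62% called higher and 2.89% called in either direction. The log2 fold change was negative for 9 of 10 genes, beside 54.8% of all genes, and its median was -0.87, beside -0.08 over all genes. At an unadjusted p under 0.05, 6 genes (*Bgn*, *Fmod*, *Prelp*, *Omd*, *Epyc* and *Chad*) had lower levels, beside 6.5% of all genes. DESeq2 called 2 genes lower, *Chad* and *Epyc*, beside 3.35% of all genes with an adjusted p. Limma voom with sample quality weights called 3 lower, these and *Prelp*, beside 2.52%. In only 1 gene, *Epyc*, was every SAG library below every DMSO library, beside 3.84% of all genes, and in 0 genes was every SAG library above every DMSO library, beside 7.9%. All 10 genes had passed the filter on low counts.

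**Figure D1:**
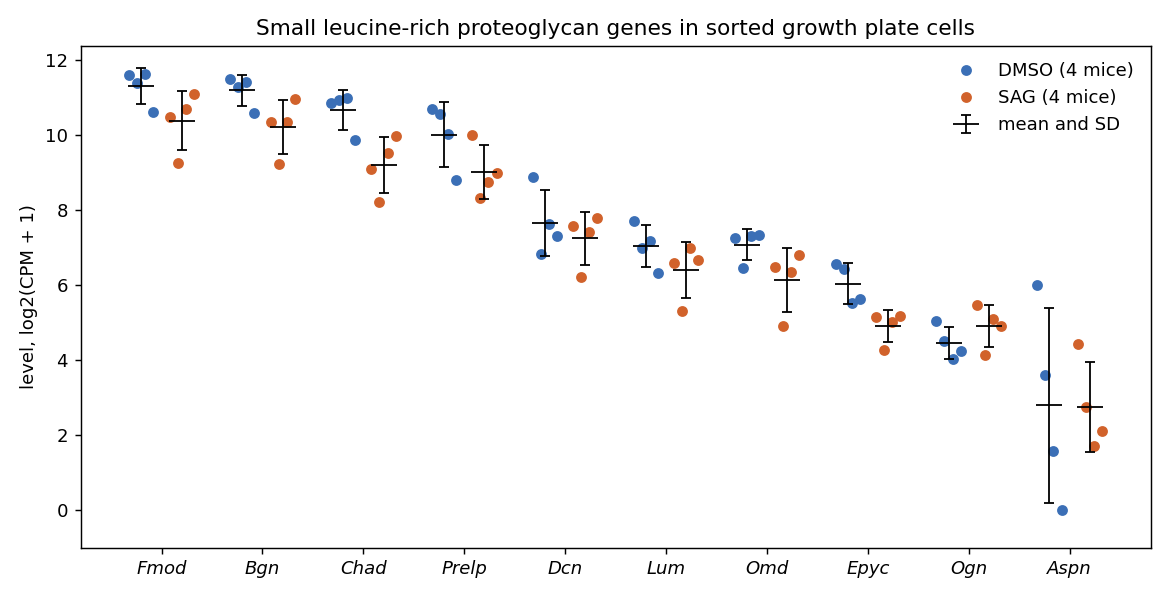
Level of the 10 SLRP genes in each mouse, as log2(CPM + 1) on the vertical axis; each dot is 1 library (4 DMSO, 4 SAG), and black marks give the mean and SD of 4. *Epyc* alone shows no overlap between groups, SAG replicate 2 is the lowest SAG dot in 9 of the 10 genes, and *Aspn* spans from 0 to 63.3 CPM. The chondrocyte marker sum was also lowest in SAG replicate 2 (18222 CPM).

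In class I, *Bgn* (biglycan), which binds collagen and growth factors and in soluble form is a ligand of Toll-like receptors, had 2905, 2477, 2726 and 1554 CPM in DMSO replicates 1 to 4 and 1297, 597, 1301 and 2008 CPM in SAG replicates 1 to 4. Of the SAG libraries, 3 lay below the lowest DMSO library and SAG replicate 4 lay within the DMSO range. EdgeR gave a log2 fold change of -0.89 (SE 0.33, adjusted p = 0.197). Since *Bgn* is X-linked, the Y-linked gene *Ddx3y* was entered as a covariate, and the log2 fold change of *Bgn* stayed at -0.89 (adjusted p = 0.233). *Ddx3y* was at 28 counts in DMSO replicate 2 and at 50 and 98 in SAG replicates 1 and 3, and between 1770 and 4404 counts in the other libraries.

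*Dcn* (decorin), the best-studied collagen-binding SLRP and an inhibitor of TGF-beta, had 469, 112, 197 and 157 CPM in DMSO and 191, 73.4, 171 and 219 CPM in SAG mice. The groups overlapped, and DMSO replicate 1, the library with the highest fibroblast marker sum, stood well above the others. The log2 fold change was -0.52 (SE 0.43, edgeR's adjusted p = 0.644), and it was 0.08 without DMSO replicate 1.

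*Aspn* (asporin), which has a run of aspartate residues in place of glycosaminoglycan chains and antagonises TGF-beta, was the most variable member. It had 63.3, 11.1, 1.99 and 0 CPM in DMSO replicates 1 to 4 and 20.4, 5.73, 2.27 and 3.31 CPM in SAG mice. The highest and the lowest value were both in the DMSO group. The log2 fold change of -1.27 had an SE of 1.34 (edgeR's adjusted p = 0.731) and was 0.86 without DMSO replicate 1. The part of fibroblast RNA in these values was not tested.

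In class II, *Fmod* (fibromodulin), which guides collagen fibril assembly and cross-linking, had 3125, 2666, 3179 and 1557 CPM in DMSO and 1437, 612, 1664 and 2196 CPM in SAG mice. The lowest DMSO library, replicate 4, lay among the SAG values. Its log2 fold change was -0.83 (SE 0.35, edgeR's adjusted p = 0.265).

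*Lum* (lumican), a keratan sulfate SLRP best known for corneal transparency, had 207, 126, 143 and 79.0 CPM in DMSO and 96.1, 38.5, 127 and 101 CPM in SAG mice. The groups overlapped, with SAG replicate 2 below and DMSO replicates 1 and 3 above the shared range. For *Lum* the log2 fold change was -0.61 (SE 0.36, edgeR's adjusted p = 0.462), and it was -0.35 without DMSO replicate 1 and -0.36 without SAG replicate 2.

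*Prelp*, a basic SLRP that binds heparan sulfate and collagen, had 1650, 1502, 1044 and 444 CPM in DMSO and 1018, 318, 432 and 511 CPM in SAG mice. DMSO replicate 4 lay below SAG replicates 1 and 4, and SAG replicate 1 near DMSO replicate 3. The log2 fold change was -1.03 (SE 0.42, edgeR's adjusted p = 0.254). Without DMSO replicate 4 it was -1.27 and was called (edgeR's adjusted p = 0.0412), as it was by limma voom (-1.31, adjusted p = 0.0229), while DESeq2 did not call it. Of 18 alternatives 2 called *Prelp*, and without 1 library edgeR's adjusted p was up to 0.543.

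*Omd* (osteomodulin, osteoadherin), a SLRP of mineralised matrix, had 151, 86.4, 157 and 161 CPM in DMSO and 89.0, 29.0, 81.2 and 111 CPM in SAG mice. Only DMSO replicate 2 lay within the SAG range. Its log2 fold change was -0.84 (SE 0.36, edgeR's adjusted p = 0.263).

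In class III, *Epyc* (epiphycan), a dermatan sulfate SLRP of epiphyseal cartilage, had 94.3, 85.7, 44.7 and 48.5 CPM in DMSO and 34.7, 18.4, 31.3 and 35.1 CPM in SAG mice. The highest SAG library lay below the lowest DMSO library. For *Epyc* the log2 fold change was -1.19, or 2.28-fold lower (SE 0.31 on the log2 scale), and missed the threshold (edgeR's adjusted p = 0.0699). DESeq2 called it (-1.21, adjusted p = 0.00678), limma voom called it (-1.25, adjusted p = 0.0199), and edgeR called it without DMSO replicate 4 (-1.30, adjusted p = 0.0206). Of 18 alternatives only these 3 called *Epyc*, and without 1 library edgeR's adjusted p was up to 0.196.

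*Ogn* (osteoglycin, mimecan), a small SLRP first described in bone, was the 1 gene with a positive value. It had 31.9, 21.9, 15.3 and 18.1 CPM in DMSO and 43.6, 16.6, 33.6 and 29.3 CPM in SAG mice. The groups overlapped through DMSO replicate 1 and SAG replicate 2. EdgeR's log2 fold change was 0.49 (SE 0.35, edgeR's adjusted p = 0.557), and it was 0.28 without SAG replicate 1.

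In class IV, *Chad* (chondroadherin), a cartilage SLRP without glycosaminoglycan chains that binds collagen and integrins, had 1851, 1949, 2031 and 931 CPM in DMSO and 551, 296, 741 and 999 CPM in SAG mice. DMSO replicate 4 lay well below the other DMSO libraries and just below SAG replicate 4, and all other SAG values were below the DMSO range. The log2 fold change of -1.39, or 2.61-fold lower (SE 0.36 on the log2 scale), was the most negative of the 10 and missed the threshold (edgeR's adjusted p = 0.0642). *Chad* was called by DESeq2 (-1.41, adjusted p = 0.00200), by limma voom (-1.53, adjusted p = 0.00845), by edgeR with at least 10 counts in every library (-1.38, adjusted p = 0.0446), and by edgeR without DMSO replicate 4 (-1.56, adjusted p = 0.0105). The share of all genes called lower in that last fit was 2.17%, and with at least 10 counts in every library 0.723%. Of 18 alternatives 4 called *Chad*, and without 1 library edgeR's adjusted p was up to 0.165.

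The SLRP levels were set beside the chondrocyte markers. Summed CPM of the 10 genes, most of it from *Fmod*, *Bgn*, *Chad* and *Prelp*, was 9.997%, 9.76%, 11.8% and 10.9% of the chondrocyte marker sum in DMSO replicates 1 to 4 and 9.60%, 11.0%, 10.54% and 12.2% in SAG replicates 1 to 4. The means were 10.6% ± 0.916 and 10.8% ± 1.06 (SD, n = 4 each), and the groups overlapped. When libraries were scaled to the geometric mean of the 12 chondrocyte markers, the median log2 fold change of all genes became 1.07. This shift moved members and other genes together, so the sign on this scale is read only against the markers. Below 0 were 3 SLRP genes, *Chad* at -0.35, *Epyc* at -0.10 and *Omd* at -0.02. The other 7 were above 0, at 0.12 for *Bgn*, 0.13 for *Prelp*, 0.18 for *Fmod*, 0.19 for *Aspn*, 0.44 for *Lum*, 0.52 for *Dcn* and 1.52 for *Ogn*. None of the 10 was called on this scale, beside 1094 of all 15421 tested genes called higher and 3 called lower. The smallest adjusted p was that of *Ogn* (edgeR, SE 0.46, adjusted p = 0.0535).

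**Figure D2:**
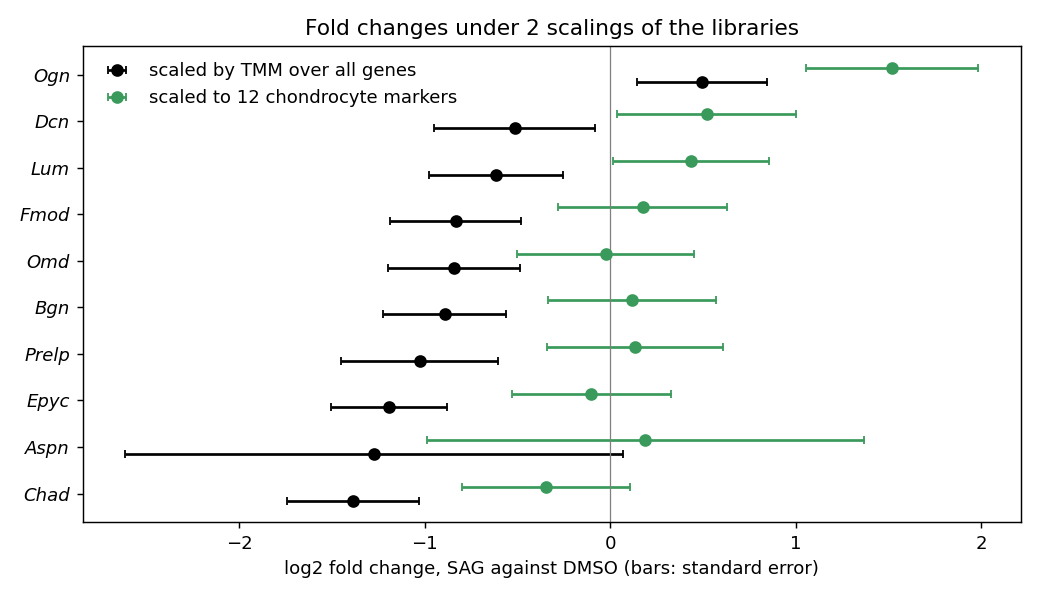
Log2 fold change of each SLRP gene, SAG against DMSO, on the horizontal axis, with the standard error as bars (4 mice per group); black, libraries scaled by TMM over all genes, green, scaled to 12 chondrocyte markers. On the TMM scale 9 genes lie below 0, and on the marker scale 3 do, while *Ogn* moves from 0.49 to 1.52.

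The make-up of the family within each library does not depend on the scaling. *Chad* held 33.5%, 39.4%, 39.1% and 35.5% of the summed CPM per kilobase of the 10 genes in DMSO and 23.3%, 29.1%, 31.04% and 31.5% in SAG mice. Every SAG share was below every DMSO share, with means of 36.9% ± 2.85 and 28.8% ± 3.79 (SD, n = 4). *Fmod* held 29.4% ± 1.63 in DMSO and 33.0% ± 2.65 in SAG mice, so on this length *Chad* was first of the family in 4 of 4 DMSO libraries and *Fmod* in 4 of 4 SAG libraries. The ratio of *Chad* to *Fmod* counts, which needs no gene length, was 0.592, 0.731, 0.639 and 0.598 in DMSO and 0.383, 0.484, 0.445 and 0.455 in SAG mice. This ratio was chosen after the values were seen, and no test was made of it.

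*Ogn* held a share of 0.378%, 0.290%, 0.193% and 0.453% in DMSO and of 1.21%, 1.07%, 0.921% and 0.605% in SAG mice. These values did not overlap either, with means of 0.328% ± 0.112 and 0.951% ± 0.258 (SD, n = 4). *Chad* and *Ogn* were also the genes with the most negative and the only positive log2 fold change. The shares within a library depend on each other, and no test was made of them. The absence of overlap for *Chad* and *Ogn* held with the longest transcript and with the longest protein-coding transcript as gene length. *Bgn* (14.8% and 16.0% in DMSO and SAG), *Prelp* (11.3% and 12.6%), *Omd* (2.55% and 2.53%), *Lum* (2.07% and 2.81%), *Dcn* (1.48% and 2.12%), *Epyc* (1.01% and 0.936%) and *Aspn* (0.252% and 0.290%) overlapped between the groups. The place of *Bgn* depended on the length used: with the longest transcript in place of the union of its exons it held 27.9% in DMSO and 29.6% in SAG mice, then the highest mean share of the SAG group.

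**Figure D3:**
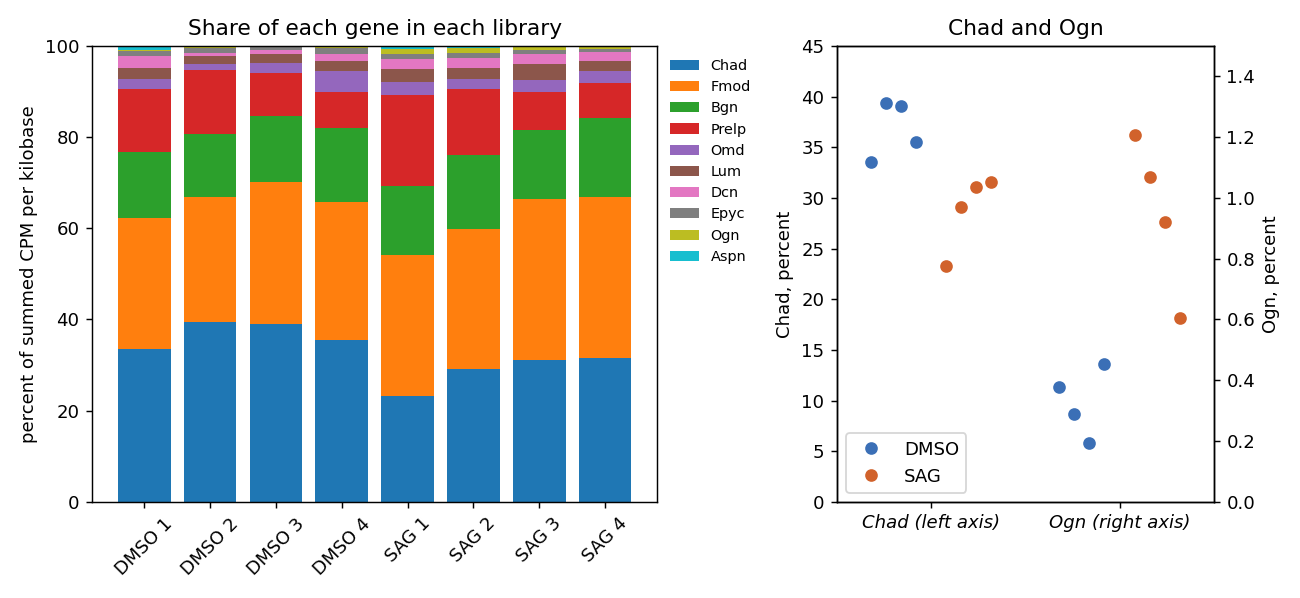
Left, percent of the summed CPM per kilobase of the 10 SLRP genes held by each gene, 1 bar per library. Right, the shares of *Chad* (left axis) and *Ogn* (right axis), 1 dot per mouse; *Chad* lies between 33.5% and 39.4% in DMSO and between 23.3% and 31.5% in SAG mice, and *Ogn* between 0.193% and 0.453% and between 0.605% and 1.21%.

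Ratios of 6 pairs of class or cluster neighbours were compared by permutation (exact, 2-sided, 70 relabellings of the mice), for which 0.0286 is the smallest possible p. The smallest p was that of the chromosome 13 neighbours *Omd* and *Ogn*. The log2 ratio of *Omd* to *Ogn* was 2.24, 1.98, 3.35 and 3.15 in DMSO and 1.03, 0.81, 1.28 and 1.92 in SAG mice. Every SAG value lay below every DMSO value, and the mean ratio (geometric) was 6.41 in DMSO and 2.39 in SAG mice. The difference of -1.42 had the smallest p the design allows (exact permutation test, p = 0.0286, adjusted p over the 6 pairs = 0.171). A single pair at this smallest p cannot fall under 0.05 after adjustment over 6 pairs, so the adjusted value cannot decide on it.

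The other 5 pairs overlapped between the groups. The log2 ratio of the class I paralogs *Bgn* and *Dcn* was 3.55 ± 0.77 in DMSO and 2.98 ± 0.18 in SAG mice (SD, n = 4; exact permutation p = 0.257, adjusted 0.514). On chromosome 10, that of *Lum* to *Dcn* was -0.62 ± 0.60 and -0.87 ± 0.30 (n = 4, exact p = 0.657, adjusted 0.789), and that of *Epyc* to *Dcn* -1.63 ± 0.87 and -2.39 ± 0.28 (n = 4, exact p = 0.143, adjusted 0.429). On chromosome 1, that of *Prelp* to *Fmod* was -1.29 ± 0.49 and -1.37 ± 0.78 (n = 4, exact p = 0.8, adjusted 0.8). That of *Aspn* to *Omd* was -5.89 ± 5.21 and -3.67 ± 1.66 (n = 4, exact p = 0.486, adjusted 0.729), with 0 *Aspn* counts in DMSO replicate 4.

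**Figure D4:**
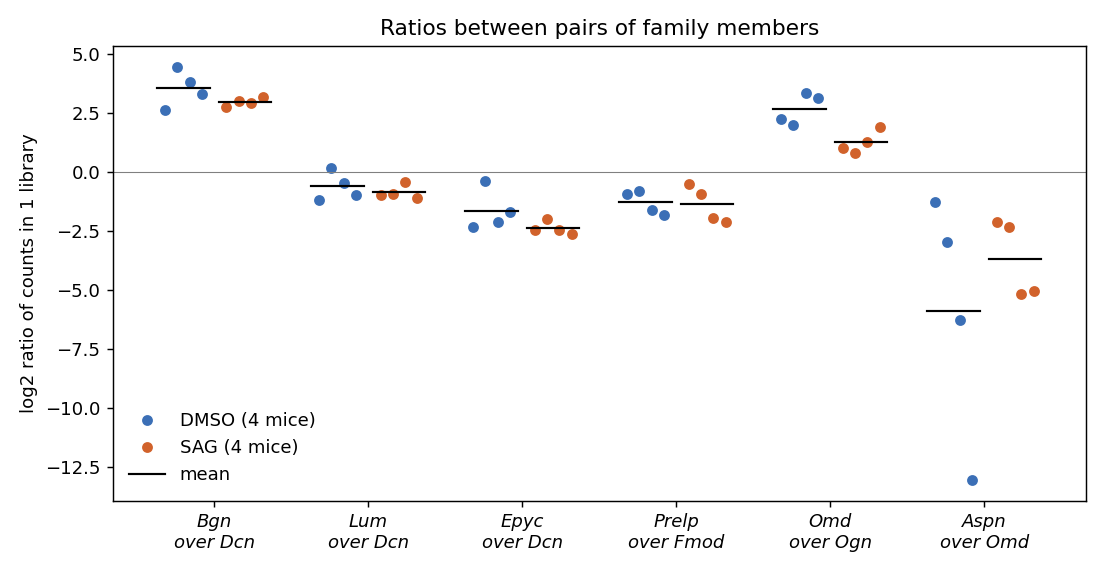
Log2 ratio of the counts of 6 pairs of SLRP genes in each library (vertical axis), with 0.5 added to each count; dots are mice, and lines the means of 4. *Omd* over *Ogn* alone shows no overlap, from 1.98 to 3.35 in DMSO and from 0.81 to 1.92 in SAG mice, and the lowest dot of *Aspn* over *Omd* is DMSO replicate 4 with 0 *Aspn* counts.

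Genes with the profile most like that of each member were taken as those with the smallest root mean square (RMS) difference of centred log2 CPM over the 8 libraries, among 9312 genes. *Bgn* and *Fmod* were close to each other, at an RMS difference of 0.103. Both also had *Col6a2*, a chain of collagen VI, and *Rcn3*, a protein of the endoplasmic reticulum, among their 3 nearest. For *Fmod*, *Rcn3* (0.101) was nearer than *Bgn*. For *Lum* they were *Maged2*, *Mettl21a* and *Ism1* (0.13 to 0.16), for *Prelp* *Amotl1*, *Bmp7* and *Grb10* (0.13 to 0.18), and for *Epyc* *Dnaja4*, *Nrk* and *Gramd2* (0.12 to 0.19). *Omd* was nearest to *Zfhx4*, *Bmp5* and *Mrps6* (0.17 to 0.21), and *Chad* to *Plod2*, a collagen lysyl hydroxylase, *Fxyd2* and *Tpd52l1* (0.24 to 0.26). *Dcn* (*Rbms3*, *Ldhb* and *Runx1t1*, 0.28 to 0.32) and *Ogn* (*4931406C07Rik*, *Psma3* and *Chic1*, 0.25 to 0.27) had looser neighbours. *Aspn* had no close one, with *Scara5* at 0.67, *Lamb1* at 0.85 and *Fbln2* at 0.90. Apart from *Bgn* and *Fmod*, no member was among the 3 nearest of another.

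Of 8 other genes of the family, 7 were tested and 0 were called (edgeR), with 6 of 7 log2 fold changes below 0 and a median of -0.41. The smallest p was that of *Tsku*, a class IV relative that is secreted and binds signalling ligands, at 7.997, 7.48, 13.98 and 11.3 CPM in DMSO and 6.87, 2.45, 6.18 and 5.43 CPM in SAG mice, without overlap (log2 fold change -0.96, SE 0.49, edgeR's adjusted p = 0.380). *Kera* was under the filter, with at most 89 counts.

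Genes of glycosaminoglycan attachment and sulfation on SLRPs, among them *Tpst1* and *Tpst2*, which sulfate tyrosines of the core protein, showed 0 of 17 calls and 13 negative values, with a median log2 fold change of -0.61. *Csgalnact1*, which starts chondroitin sulfate chains, had the smallest p, with 59.2 ± 14.6 CPM in DMSO and 33.0 ± 11.2 CPM in SAG mice (SD, n = 4 each; log2 fold change -0.84, edgeR's adjusted p = 0.200). Of the proteases that process or cleave SLRPs, listed with *Pcolce*, the enhancer of the procollagen C-proteinase, 0 of 10 were called and 10 of 10 were below 0 (median -0.70). *Bmp1*, the procollagen C-proteinase that also trims pro-biglycan, had 85.3 ± 47.3 CPM in DMSO and 42.0 ± 5.87 CPM in SAG mice (SD, n = 4 each; log2 fold change -1.02, edgeR's adjusted p = 0.196).

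Of 18 collagens and matrix proteins that SLRPs bind, 0 were called and 16 were below 0 (median -0.72). *Col9a1*, a chain of the cartilage collagen IX and also one of the 12 chondrocyte markers, had 4356 ± 1523 CPM in DMSO and 2053 ± 771 CPM in SAG mice (SD, n = 4 each; log2 fold change -1.09, edgeR's adjusted p = 0.139). Among 18 growth factors and receptors that SLRPs bind, 1 was called higher, 0 were called lower and 12 were below 0 (median -0.26). The called gene was *Cd44*, a hyaluronan receptor that leukocytes also carry. It had 262, 293, 300 and 344 CPM in DMSO and 512, 826, 638 and 740 CPM in SAG mice, without overlap (log2 fold change 1.18, SE 0.19, edgeR's adjusted p = 0.0116), and the neutrophil marker sum was higher in the same 4 libraries. The part of neutrophil RNA in the *Cd44* level was not tested.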

How the data were processed

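The authors deposited raw counts of reads per gene and library, whole numbers for 16536 genes and 8 libraries, made with a stranded total RNA kit for picogram inputs. Per the labels, kallisto and DESeq2 were used on GRCm38, without versions, so the counts may be rounded estimates. Whether strand was used is not given in the sources used here. Libraries were grouped by their labels, 1 mouse each. In R 4.3.3, edgeR 4.0.16 (filterByExpr, TMM, robust quasi-likelihood test, Benjamini-Hochberg, threshold 0.05) tested 15421 genes, and p-values of single genes are from this fit unless another tool is named. DESeq2 1.42.0, limma 3.58.1, other scalings and filters, *Ddx3y* as a covariate, a replicate block and leaving out each library were alternatives, and the fits were tested on simulated data. Levels between genes were divided by the union of exons. Ratios within a library had 0.5 added to each count and were tested by exact permutation. Of the 18 glycosaminoglycan and sulfation genes and 11 genes of the protease list, 1 each was not analysed here, and *Xist* was not analysed here. Named were the 10 members, the called genes of each related list or, with none, the one with the smallest p, 3 nearest genes per member with a mean CPM of at least 10, the sort genes and *Ddx3y*. Members and lists were chosen with earlier results of these data known. Depth was between 24971992 and 46593090 counts, and precision was limited by the spread between 4 mice.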

Additional observations from a re-analysis of the deposited data

Results flagged for a closer look

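In 3 of 52 sets of 4 values a single mouse stood apart from the other 3 by Dixon's criterion, where chance alone gives about 2.6. *Omd* was at 86.4 CPM in DMSO replicate 2, and the nearest other DMSO library was at 151 CPM. *Chad* was at 931 CPM in DMSO replicate 4, the shallowest library, and the nearest was at 1851 CPM. DMSO replicate 4 also had the lowest chondrocyte marker sum of its group. *Epyc* held 0.564% of the summed SLRP level in DMSO replicate 3, and the nearest was 1.12%. Without DMSO replicate 4 the log2 fold change of *Chad* was -1.56, as given above.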

How the results depend on the processing

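Across 18 alternatives each (17 for *Aspn*, which has fewer than 10 counts in a library), *Epyc*, *Omd* and *Chad* had negative and *Ogn* positive log2 fold changes throughout. The number of SLRP genes called lower was 2 with DESeq2, 3 with limma voom and 1 with at least 10 counts in every library. Without 1 library it was between 0 and 3, with 3 without DMSO replicate 4 and 0 without any other. Scaled to chondrocyte markers, 3 genes had a log2 fold change below 0, and the sign turned for *Dcn* (0.52), *Bgn* (0.12), *Fmod* (0.18), *Lum* (0.44), *Prelp* (0.13) and *Aspn* (0.19), where the median of all genes moved to 1.07. Without DMSO replicate 1 the sign turned for *Dcn* and *Aspn*, whose range over the fits without 1 library was from -0.74 to 0.076 and from -2.34 to 0.86.

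Replicate numbers were not taken as pairs of mice, because the labels name no shared litter or batch. Correlations of same-numbered libraries' deviations were between 0.010 and 0.120. They were not compared with those of differently numbered libraries, so they cannot decide on pairing. With the replicate block 0 SLRP genes were called, 8 were below 0, and *Aspn* turned to 0.17. Over all genes the block gave 334 higher and 18 lower. The number of all genes called lower or higher was 413 and 812 with DESeq2, 388 and 982 with limma voom, 87 and 558 with at least 10 counts in every library, 3 and 1094 with the marker scaling, and between 4 and 343 and between 80 and 1017 without 1 library, against 41 and 404. Without 1 library, the difference in log2 ratio was between -0.37 and 0.16 for *Prelp* over *Fmod*, between -0.44 and 0.0094 for *Lum* over *Dcn*, between -0.17 (without DMSO replicate 4) and 3.76 for *Aspn* over *Omd*, between -0.88 (without DMSO replicate 1) and -0.26 (without DMSO replicate 2) for *Bgn* over *Dcn*, between -0.98 and -0.34 (without DMSO replicate 2) for *Epyc* over *Dcn*, and between -1.66 and -1.20 for *Omd* over *Ogn*, where 0.0571 is the smallest p that 7 mice allow. The causes were not tested.

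With the longest transcript as gene length, mean shares in DMSO and SAG mice were 27.9% and 29.6% for *Bgn*, 25.7% and 28.5% for *Fmod* and 30.5% and 23.4% for *Chad*, and 2.05% for *Omd* in SAG mice. With the longest protein-coding transcript, chosen after seeing the data, they were 3.82% and 5.36% for *Dcn*, 29.1% and 30.6% for *Bgn*, 24.4% and 26.7% for *Fmod*, 1.62% and 2.15% for *Lum* and 28.9% and 21.9% for *Chad*, and 0.720% for *Epyc* and 1.93% for *Omd* in SAG mice.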
